A study of Mus musculus with 6 samples.

Results

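The comparison described here sets liver immune cells of mice given concanavalin A (ConA) and delta-8-tetrahydrocannabinol (D8THC) against those of mice given the same ConA dose with vehicle. Its members were taken from the labels: 2 ConA+D8THC and 2 ConA+Vehicle libraries, 4 of the 6 libraries in the series, read over every mature miRNA in the deposited table. All mice were wildtype female C57BL/6J aged 10 weeks, and both groups received 12.5 mg/kg ConA through the retro-orbital sinus under isoflurane. ConA+D8THC mice had 20 mg/kg D8THC in 100 µL DMSO and corn oil by the intraperitoneal route, once 15 to 18 h ahead of ConA and once 30 min following it, while controls had the solvent alone. The other 2 libraries, labelled Vehicle, came from mice given no ConA; their levels are given beside the comparison, and they entered the estimate of spread. The labels call the samples biological replicates, but the number of mice pooled in each is not given in the sources used here, so the p-values measure the spread between these libraries only.

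miRNAs are short RNAs cut from hairpin precursors that guide Argonaute proteins to messenger RNAs, mainly through the seed, bases 2 to 8 of the mature strand. Some are made mainly by a single cell type, so that a small RNA library of a mixed sample also records which cells, or RNA shed by them, it held. ConA is a plant lectin that cross-links T cell receptors; given by vein it causes a T cell and macrophage-driven hepatitis with death of hepatocytes. D8THC is an isomer of the main cannabis cannabinoid and binds the cannabinoid receptors CB1 and CB2, the latter carried mostly by immune cells.

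Depth differed between the groups. ConA+Vehicle replicates 1 and 2 had 381274 and 322764 counts, and ConA+D8THC replicates 1 and 2 had 913285 and 690713. The floor of 3 counts corresponded to 7.48 and 9.93 CPM (counts scaled to a common library size) in the former pair and to 3.10 and 4.27 CPM in the latter; floors and intervals here cover counting error only. Of 1960 miRNAs listed, 806 had a count and 297 were abundant enough to test. The 509 counted but not tested reached at most 30 counts over the 4 ConA libraries together.

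The label "liver immune cells" was checked against marker miRNAs. The pan-haematopoietic pair from the miR-142a hairpin held 7.72% to 11.2% of counts in the 4 ConA libraries. Hepatocyte miRNAs held 5.18% to 19.8% and the endothelial miR-126a pair 12.8% to 26.7% of the same libraries, so miRNAs typical of other liver cells were present beside them.

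The sequences of the miRNAs on which the results turn are shown first, because their seeds show which of them could act on shared targets. Of the 11 miRNAs that passed the test, 9 had a mature entry in RefSeq (GRCm38.p6), and 250 of all 297 tested had one. In the list below capitals mark the seed. The first 9 are those that were lower with D8THC, and miR-215-5p shares a seed with one of them. The last 5 are a choice from the 10 named at the higher end, none of which was called.
miR-192-5p: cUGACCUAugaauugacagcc
miR-194-5p: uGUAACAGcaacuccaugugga
miR-802-5p: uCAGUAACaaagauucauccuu
miR-216a-5p: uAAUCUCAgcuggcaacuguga
miR-217-5p: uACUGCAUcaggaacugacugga
miR-5121: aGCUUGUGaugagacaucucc
miR-5126: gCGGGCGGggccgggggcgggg
miR-6538: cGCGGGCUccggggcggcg
miR-3535: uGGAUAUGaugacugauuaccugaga
miR-215-5p: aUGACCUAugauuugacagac
miR-126a-3p: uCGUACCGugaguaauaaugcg
miR-99a-5p: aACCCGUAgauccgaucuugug
miR-99b-5p: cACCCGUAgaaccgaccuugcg
miR-100-5p: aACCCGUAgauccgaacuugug
miR-10a-5p: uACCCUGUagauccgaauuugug

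The 9 sequenced miRNAs that were lower carried 9 distinct seeds. Among those printed from the higher end, miR-99a-5p, miR-99b-5p and miR-100-5p share the seed ACCCGUA, while miR-126a-3p and miR-10a-5p each have another. Counting positions from 1 at the 5′ end, miR-99a-5p and miR-100-5p differ by the single substitution U16A, so that reads could be split between them. miR-192-5p and miR-215-5p differ by C1A, A12U and C20A.

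All miRNAs that passed the threshold were lower with D8THC. In edgeR's quasi-likelihood test, with an adjusted p under 0.05 as the threshold for a call, 11 of 297 were lower in ConA+D8THC (3.7% of those tested) and 0 were higher (0%). At an unadjusted p under 0.05 the counts were 37 lower (12.5%) and 19 higher (6.4%). For 75 miRNAs both ConA+D8THC libraries were under both ConA+Vehicle libraries (25.3%), and for 64 they were over them (21.5%). Between 2 libraries and 2 others with no difference, chance alone gives no overlap in 33.3% of cases, both directions counted. A lack of overlap in a single miRNA or list therefore does not by itself show a difference. DESeq2 called 12 lower and 5 higher, and limma-voom 13 lower and 1 higher. Most miRNAs moved little: the median log2 fold change was -0.04, with 33 miRNAs below -1 and 10 above 1. The 11 were 4 hepatocyte miRNAs, 3 pancreas-enriched miRNAs and 4 entries listed as possible fragments of other RNAs. All lists were chosen with earlier results of these data known, so counts within them describe these libraries only. Leaving out ConA+Vehicle replicate 1 reduced the lower calls to 8, and leaving out the pancreas-enriched list reduced them to 5. Without ConA+D8THC replicate 2 there were 22 lower and 2 higher, without Vehicle replicate 1 26 and 8, and without Vehicle replicate 2 30 and 10. Scaling to the counts outside the hepatocyte, pancreas-enriched, endothelial and erythroid lists gave 15 lower and 7 higher. Of the calls lost without the pancreas-enriched list, 3 were its own members, and the rest were miR-3535, miR-5126 and miR-6538.

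**Figure D1:**
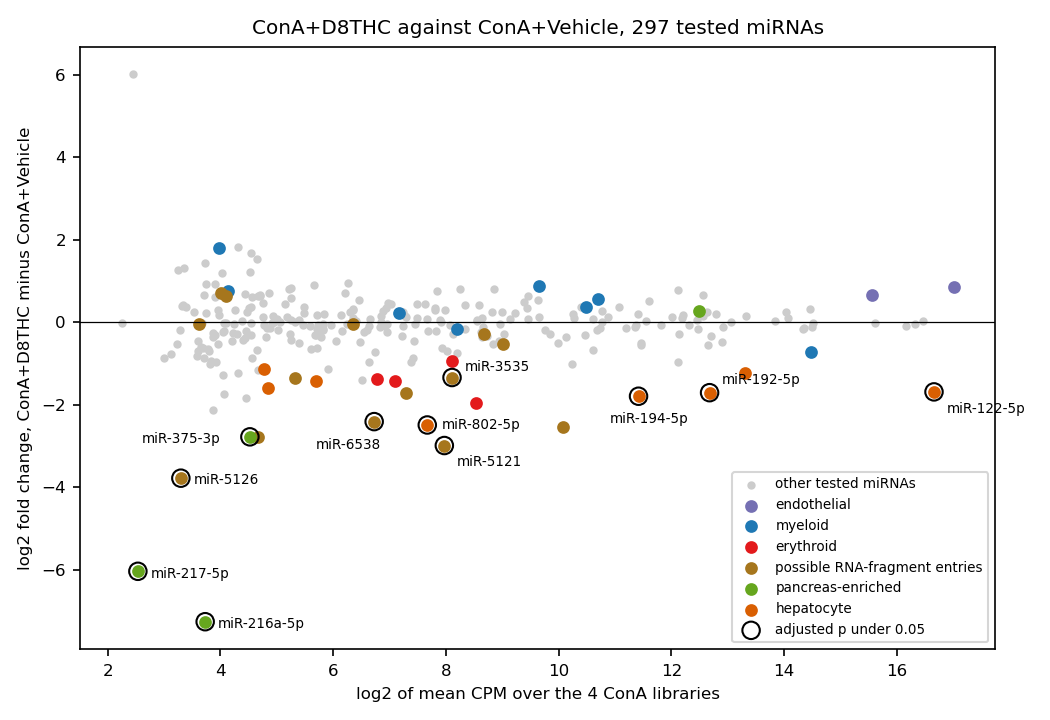
Log2 fold change, ConA+D8THC minus ConA+Vehicle (vertical), against the log2 of the mean CPM over the 4 ConA libraries (horizontal), 1 point for each of 297 tested miRNAs; colours mark lists and rings the 11 called. All rings lie below 0; the fold changes of miR-216a-5p and miR-217-5p, which had no count in ConA+D8THC, and of the grey point at 6.01, miR-184-3p, which had none in ConA+Vehicle, depend on the prior count.

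Hepatocyte miRNAs were lower with D8THC. Of 8 tested members, 4 were called lower, 0 higher and 4 not called, beside 3.7% lower and 0% higher over all tested miRNAs. All 8 were lower in both ConA+D8THC libraries than in either ConA+Vehicle library, as were 25.3% of all tested miRNAs. The list's median log2 fold change was -1.64 against -0.04 over all tested miRNAs. miR-122, miR-192 and miR-802 each entered with both arms, so the 8 are not independent. In a mixed sample, fewer cells of a type and less RNA per cell cannot be told apart. Scaling in 4 other ways kept the list's median between -1.75 and -1.53. Without Vehicle replicate 1 or without Vehicle replicate 2, 7 of the 8 were called lower.

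miR-122-5p, the dominant miRNA of hepatocytes and a regulator of lipid metabolism, had 137664 and 177908 CPM in ConA+Vehicle replicates 1 and 2 and 41043 and 57101 CPM in ConA+D8THC replicates 1 and 2. Both ConA+D8THC values were also under the 2 Vehicle libraries, at 76919 and 128134 CPM. The fitted fold was 3.22-fold lower with D8THC (log2 -1.68, 95% interval -2.35 to -1.02, edgeR adjusted p = 0.00999). By share of the library it was the most abundant miRNA in both ConA+Vehicle libraries, with 14.5% and 16.7% of counts, whereas miR-126a-3p led both ConA+D8THC libraries.

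miR-192-5p and miR-194-5p, epithelial miRNAs of liver and gut, come from neighbouring hairpins on chromosome 19 (Mir194-2 at chr19:6264643-6264728 and Mir192 at chr19:6264844-6264932, both on the plus strand, with no other gene annotated over them in GENCODE M21). miR-192-5p had 8534 and 11514 CPM in ConA+Vehicle and 2393 and 3762 CPM in ConA+D8THC (log2 -1.70 ± 0.28 SE, edgeR adjusted p = 0.00863). miR-194-5p had 4166 and 4319 CPM in ConA+Vehicle and 1082 and 1373 CPM in ConA+D8THC (log2 -1.79 ± 0.26 SE, edgeR adjusted p = 0.00399). The clustered pair thus moved by nearly the same amount, with no overlap between groups.

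miR-194-5p is also encoded at a second site, Mir194-1 at chr1:185313319-185313385, beside Mir215 at chr1:185313581-185313692, whose product miR-215-5p has the seed of miR-192-5p. miR-215-5p was not called: it had 242 and 19.9 CPM in ConA+Vehicle and 28.9 and 75.4 CPM in ConA+D8THC, so the groups overlapped (edgeR adjusted p = 0.558). ConA+Vehicle replicate 1 set its value: the log2 fold change was -1.39 with that library and 1.35 without it.

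miR-802-5p, a hepatocyte miRNA linked to glucose metabolism (Mir802 at chr16:93369720-93369816, plus strand, intergenic in GENCODE M21), had the steepest decrease of the list. It stood at 329 and 361 CPM in ConA+Vehicle and at 35.1 and 89.6 CPM in ConA+D8THC, 5.61-fold lower (edgeR adjusted p = 0.00942). Both ConA+D8THC libraries lay under the other ConA group and under the Vehicle libraries (119 and 174 CPM).

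The list's other tested members had lower values that did not pass. miR-148a-3p, abundant in hepatocytes and found in many other cells, had 11456 and 16783 CPM in ConA+Vehicle and 4241 and 7924 CPM in ConA+D8THC (log2 -1.21 ± 0.34 SE, edgeR adjusted p = 0.0876). Its call came in DESeq2 and in 9 other settings. The passenger strands miR-122-3p (log2 -1.43, edgeR adjusted p = 0.0533), miR-802-3p (log2 -1.60, 0.144) and miR-192-3p (log2 -1.14, 0.325) had the sign of their guide strands.

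**Figure D2:**
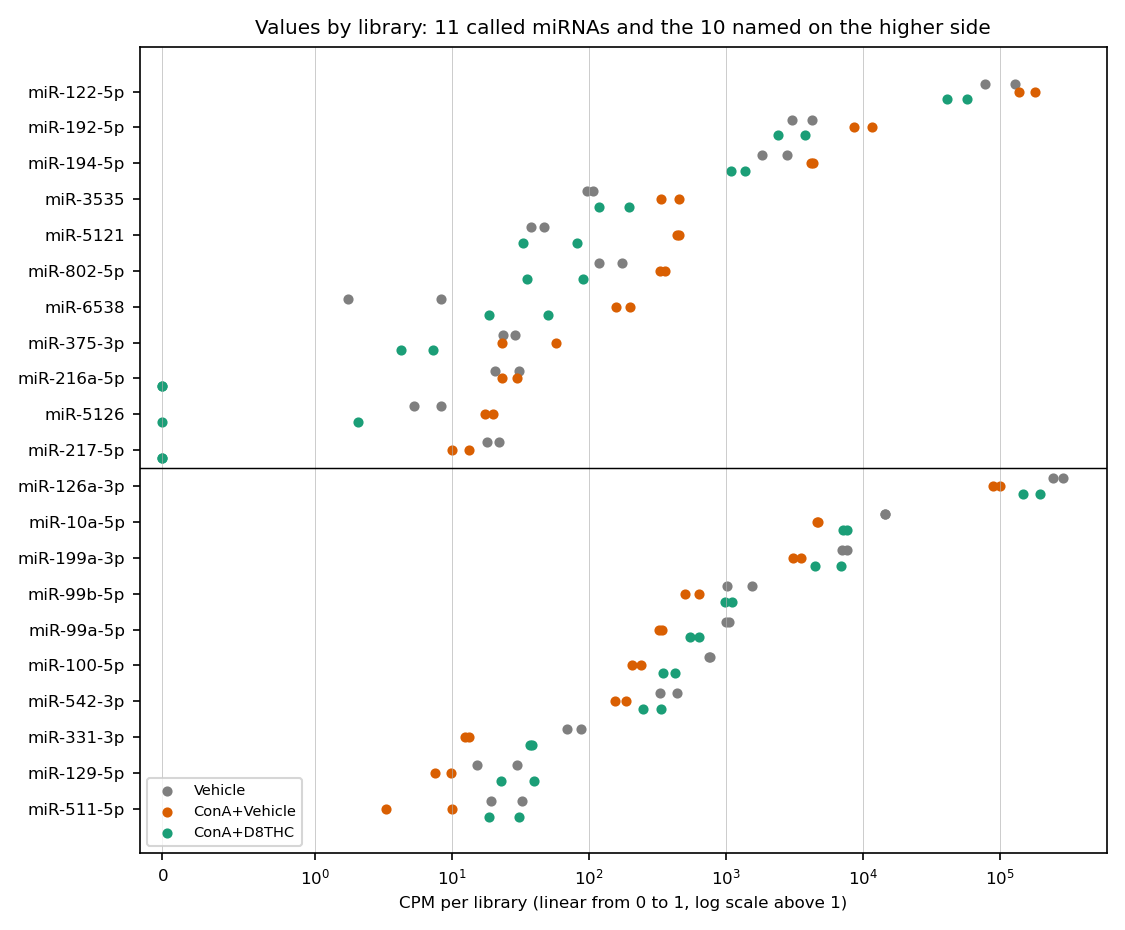
CPM in each library (horizontal, linear from 0 to 1 and log scale above 1) for the 11 called miRNAs (upper block) and 10 at the higher end (lower block), 2 points for each of Vehicle, ConA+Vehicle and ConA+D8THC. Those 10 had the smallest p-values on that side among miRNAs without overlap and with a mean of at least 10 CPM over the ConA libraries. In the upper block every ConA+D8THC point lies left of both ConA+Vehicle points. The lower block was chosen for a lack of overlap, so its ConA+D8THC points lie right of both ConA+Vehicle points by that choice.

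Pancreas-enriched miRNAs were called lower in 3 of 4 tested cases by edgeR, against 3.7% of all tested miRNAs. limma-voom also called 3 of them lower, and DESeq2 called 2. With so few counts in ConA+D8THC, these 3 passed the abundance filter only through the other groups, which favours lower over higher calls. miR-216a-5p and miR-217-5p, miRNAs of acinar cells, are encoded on the plus strand of chromosome 11 within introns of the noncoding gene Gm12082 (Mir216a at chr11:28757012-28757083 and Mir217 at chr11:28763728-28763835). miR-216a-5p had 12 and 7 counts in ConA+Vehicle and 0 and 0 in the deeper ConA+D8THC libraries, at least 15.1-fold lower against a floor of 3 counts over the group (edgeR adjusted p = 0.00538). The Vehicle libraries held 15 and 35 counts of it. miR-217-5p had 4 and 4 counts in ConA+Vehicle and 0 and 0 in ConA+D8THC, at least 6.34-fold lower (edgeR adjusted p = 0.0245). It was too sparse to be tested with the 4 ConA libraries alone or with a minimum of 10 CPM.

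miR-375-3p, abundant in pancreatic islets and also made by other endocrine epithelium, had 23 and 7 counts in ConA+Vehicle and 7 and 3 in ConA+D8THC (log2 -2.77, edgeR adjusted p = 0.0245). Its call was lost without ConA+Vehicle replicate 1 (edgeR adjusted p = 0.338, log2 -1.94) and in DESeq2 (DESeq2 adjusted p = 0.0507). The call of miR-217-5p also ended without that library (edgeR adjusted p = 0.0676) and without ConA+D8THC replicate 1 (0.0661), which left 1 and 2 of the 3 calls.

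The list's single abundant member, miR-7a-5p, which many tissues make, had 5106 and 5381 CPM in ConA+Vehicle and 6664 and 5958 CPM in ConA+D8THC and was not called (log2 0.27, edgeR adjusted p = 0.633). Because of it the share of counts held by the list was higher with D8THC, at 0.708% and 0.607% against 0.547% and 0.509%. The part of tissue other than liver in these values was not tested. The list's median log2 fold change was -4.40 as fitted and -2.72 with the 2 miRNAs that had no count at their bounds.

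Entries listed as possible fragments of other RNAs were lower as well. Of 14 tested, 4 were called lower and 0 higher, beside 3.7% and 0% of all tested miRNAs. The list's median log2 fold change was -1.34. DESeq2 called 3 and limma-voom 6. edgeR called 7 of 15 without Vehicle replicate 1, 8 of 16 without Vehicle replicate 2, 7 of 15 without ConA+D8THC replicate 2, 2 of 15 without ConA+Vehicle replicate 2, and 1 of 14 without the pancreas-enriched list. These are miRBase entries for which reads from other abundant RNAs may be counted. The part of RNA quality or fragmentation in their values was not tested. They held 0.424% and 0.454% of counts in ConA+Vehicle, 0.140% and 0.193% in ConA+D8THC, and 0.0936% and 0.0845% in Vehicle. The list was chosen with earlier results of these data known, so its lower values are not a separate test.

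miR-5121 (Mir5121 at chr7:45126918-45126991, minus strand) lies on the same strand as the small nucleolar RNA gene Snord33 inside the ribosomal protein gene Rpl13a. It had 454 and 437 CPM in ConA+Vehicle and 33.0 and 81.1 CPM in ConA+D8THC, the lowest p of all tested miRNAs (log2 -2.99 ± 0.41 SE, edgeR adjusted p = 0.00399). miR-3535 overlaps an exon of Ncl, the nucleolin gene (chr1:86351981-86352127, minus strand), and had 334 and 457 CPM against 119 and 195 CPM with D8THC (log2 -1.34, edgeR adjusted p = 0.0433). Rpl13a encodes a ribosomal protein, and nucleolin acts in ribosome assembly.

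miR-6538, in an intron of Rnf144a (chr12:26414901-26415010, minus strand), had 157 and 199 CPM in ConA+Vehicle and 18.6 and 49.8 CPM in ConA+D8THC (edgeR adjusted p = 0.0382). miR-5126 (chr1:84695839-84695915, plus strand, opposite to Dner) had 7 and 6 counts in ConA+Vehicle and 2 and 0 in ConA+D8THC. That is a ratio of 15.5 with a 95% counting interval of 3.50 to 141 (edgeR adjusted p = 0.0275). Both sequences, printed above, are built almost wholly of G and C. With so few counts in ConA+D8THC, miR-5126 passed the abundance filter only through the other groups, which favours a lower over a higher call.

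With the 4 ConA libraries alone or a minimum of 10 CPM, miR-5126 was not tested. The calls of miR-3535, miR-5126 and miR-6538 were lost in some settings. That of miR-3535 ended without ConA+Vehicle replicate 2 (edgeR adjusted p = 0.217) or ConA+D8THC replicate 1 (0.108), and with library totals (0.0582). For miR-5126, leaving out either ConA+Vehicle library (0.213 without replicate 1, 0.0950 without replicate 2) or replicate 2 of ConA+D8THC (0.116) had the same effect, as did DESeq2 (DESeq2 adjusted p = 0.159). With the pancreas-enriched list left out of the test, miR-3535 (edgeR adjusted p = 0.0697), miR-5126 and miR-6538 (both 0.0587) did not pass. The most abundant entry of the list, miR-2137, had 1646 and 2055 CPM in ConA+Vehicle and 116 and 526 CPM in ConA+D8THC, and did not pass (log2 -2.54 ± 0.64 SE, edgeR adjusted p = 0.0852). miR-5099 had 623 and 596 CPM in ConA+Vehicle and 412 and 432 CPM in ConA+D8THC (edgeR adjusted p = 0.240).

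Some miRNAs just outside the threshold on the lower side were singled out after their values were seen. miR-101b-3p, from the family that targets the histone methyltransferase Ezh2, had 1371 and 1867 CPM in ConA+Vehicle and 756 and 849 CPM in ConA+D8THC (log2 -1.01 ± 0.25 SE, edgeR adjusted p = 0.0513). It was called in 11 of 19 other settings. miR-6236, a fragment list member, had 14 and 16 counts against 2 and 8 (edgeR adjusted p = 0.0513), and miR-135a-5p 10 and 7 counts against 6 and 3 (0.0552). Both also passed the abundance filter only through the other groups.

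At the higher end no miRNA passed. Of the 2 tested endothelial miRNAs, edgeR and limma-voom called 0 and DESeq2 called 1 higher. Both were higher at an unadjusted p under 0.05, as were 6.4% of all tested miRNAs. The endothelial pair comes from the Mir126a hairpin within Egfl7 (chr2:26591357-26591429, plus strand). Its main strand miR-126a-3p, which sustains vascular integrity, had 88096 and 99485 CPM in ConA+Vehicle and 145450 and 193282 CPM in ConA+D8THC (log2 0.85, 95% interval 0.33 to 1.38, edgeR adjusted p = 0.0795). The Vehicle libraries had more still, at 242143 and 284893 CPM. miR-126a-5p had 33247 and 41551 CPM in ConA+Vehicle and 50040 and 68628 CPM in ConA+D8THC (edgeR adjusted p = 0.200).

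miR-126a-3p was called higher by DESeq2, with library totals and in 7 other settings. The endothelial share of counts was 12.8% and 13.2% in ConA+Vehicle and 20.7% and 26.7% in ConA+D8THC, beside a hepatocyte share of 17.1% and 19.8% that stood at 5.18% and 7.16% with D8THC. The part of either share in the other was not tested.

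**Figure D3:**
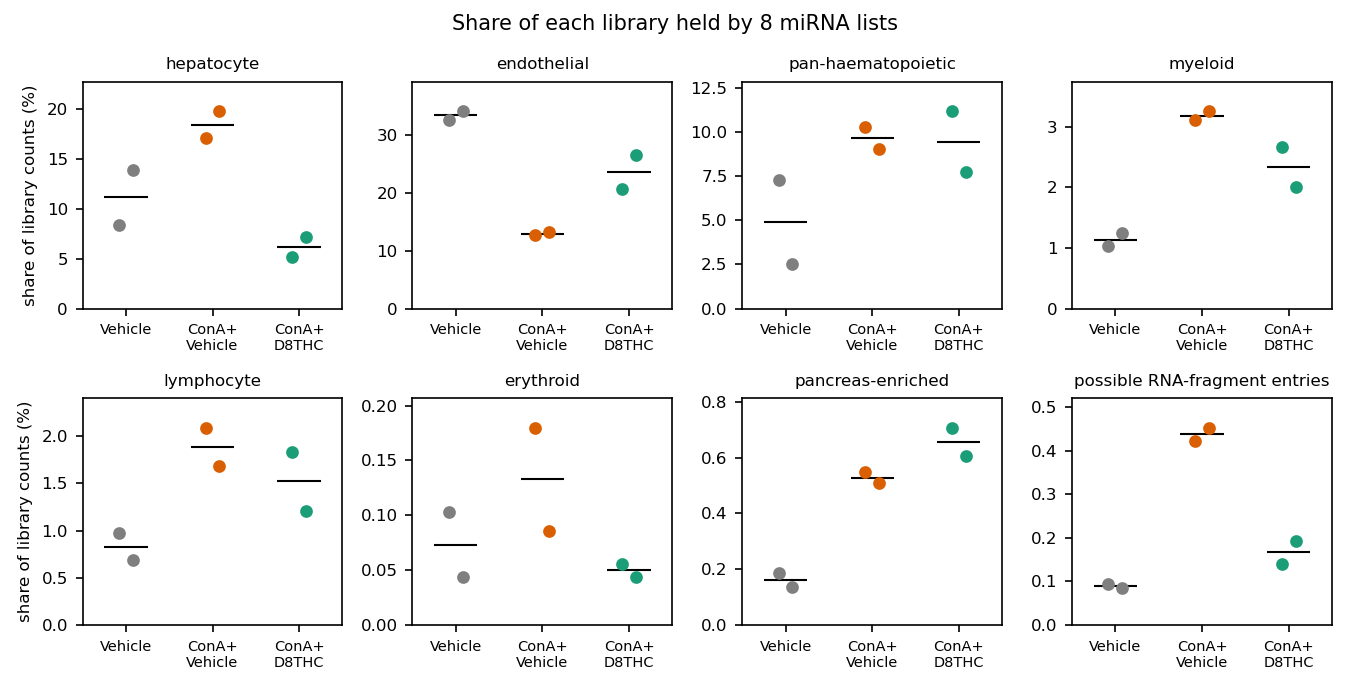
Share of each library's counts (vertical, percent) held by 8 miRNA lists in Vehicle, ConA+Vehicle and ConA+D8THC; points are libraries and bars the means of 2. The ConA groups do not overlap for the hepatocyte, endothelial, myeloid, erythroid, pancreas-enriched and RNA-fragment lists, and overlap for the pan-haematopoietic and lymphocyte lists.

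The 3 miRNAs with the seed ACCCGUA, a family known to target the growth regulator mTOR, lie on 3 chromosomes and had nearly equal fold changes. Reads could be split between miR-99a-5p and miR-100-5p, so their values may not be independent. All 3 were named for small p-values without overlap. miR-99a-5p (chromosome 16) had 327 and 341 CPM in ConA+Vehicle and 543 and 635 CPM in ConA+D8THC (log2 0.82, edgeR adjusted p = 0.0765). miR-99b-5p had 504 and 635 CPM against 983 and 1111 CPM (log2 0.88, 0.0876), and miR-100-5p (chromosome 9) 207 and 238 CPM against 347 and 427 CPM (log2 0.80, 0.0912). Each is encoded beside a let-7 and a miR-125 gene.

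The 3 tested miRNAs of the miR-125 seed did not pass either. miR-125a-5p, from the miR-99b cluster on chromosome 17, was at log2 0.58 (edgeR adjusted p = 0.170), beside miR-125b-5p at 0.52 and miR-351-5p at 0.95, both named after their values were seen. miR-10a-5p, from the HoxB locus and differing from the miR-99 family within the seed, had 4717 and 4623 CPM in ConA+Vehicle and 7135 and 7555 CPM in ConA+D8THC (log2 0.65, edgeR adjusted p = 0.0876).

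Of the remaining named miRNAs, miR-199a-3p, a miRNA of stellate cells and fibroblasts, had 3052 and 3492 CPM in ConA+Vehicle and 4420 and 6870 CPM in ConA+D8THC (edgeR adjusted p = 0.0929). In the stellate cell and fibroblast list edgeR called 0 of 6, and DESeq2 called 1 higher. At an unadjusted p under 0.05, 2 of the 6 were higher, beside 6.4% of all tested miRNAs. The list's members were split, 3 above 0 and 3 below, with miR-143-3p at log2 -0.95 and overlapping groups. miR-542-3p, from the X-linked cluster that also holds miR-322, had 155 and 185 CPM against 246 and 334 CPM (edgeR adjusted p = 0.170).

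Others at the higher end were sparse in the shallower ConA+Vehicle libraries. miR-331-3p had 5 and 4 counts there and 37 and 26 in ConA+D8THC (log2 1.54, edgeR adjusted p = 0.0852), and miR-129-5p 3 and 3 counts against 22 and 28 (0.152). miR-184-3p, chosen after its values were seen, had no count in ConA+Vehicle and 13 and 6 in ConA+D8THC, at least 2.66-fold higher against the floor of 3 counts over the ConA+Vehicle group.

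In the main edgeR test (all 6 libraries, TMM scaling, groups only), no member of the myeloid, lymphocyte, inflammation or T cell lists was called between the ConA groups. Some other settings called a few. A fit with a replicate block called 1 myeloid, 1 lymphocyte and 2 T cell activation members lower, and 2 myeloid members higher. The miR-142a pair, made in all haematopoietic lineages, was at 75625 and 74591 CPM (miR-142a-3p) in ConA+Vehicle and at 81767 and 59577 CPM in ConA+D8THC, on both sides of the controls (log2 -0.09, 95% interval -1.21 to 1.04). miR-142a-5p gave log2 -0.14 (-0.94 to 0.66). Both intervals are wide, and the sign of miR-142a-3p turned under 2 of the 4 other scalings.

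The myeloid list had 0 of 8 tested members called by edgeR, 1 called higher by DESeq2 and 0 by limma-voom. At an unadjusted p under 0.05, 1 was lower and 3 higher, beside 12.5% and 6.4% of all tested miRNAs. The list's median log2 fold change was 0.47. The member called by DESeq2 was miR-99b-5p. It was also called higher with scaling outside the 4 lists, a minimum of 10 CPM, the 4 ConA libraries alone or a replicate block. So it was at a threshold of 0.1, without the fragment entries, and without Vehicle replicate 1, Vehicle replicate 2 or ConA+D8THC replicate 1. miR-223-3p, the main miRNA of neutrophils, had 26079 and 30971 CPM in ConA+Vehicle and 20294 and 14368 CPM in ConA+D8THC, without overlap (log2 -0.72, 95% interval -1.23 to -0.20, edgeR adjusted p = 0.106). It was called lower when either Vehicle library was left out.

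miR-511-5p, encoded within Mrc1, whose product is the mannose receptor of macrophages (intronic, chr2:14261003-14261081, plus strand), had 4 and 1 counts in ConA+Vehicle and 30 and 13 in ConA+D8THC (log2 1.81, edgeR adjusted p = 0.170). Its partner strand miR-511-3p had 4 and 5 counts against 22 and 15 (log2 0.77, edgeR adjusted p = 0.558). The share of all counts held by the myeloid list, in which miR-223-3p prevails, was 3.10% and 3.26% in ConA+Vehicle and 2.67% and 2.01% in ConA+D8THC.

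Lymphocyte miRNAs were not called: 0 of 8 tested in edgeR, DESeq2 and limma-voom, and 0 at an unadjusted p under 0.05. miR-150-5p, a marker of mature lymphocytes that restrains Myb, had 8539 and 6798 CPM in ConA+Vehicle and 6424 and 4040 CPM in ConA+D8THC (log2 -0.55, 95% interval -1.20 to 0.09). miR-342-3p overlapped between the groups (log2 0.36), and so did miR-181a-5p, which tunes T cell receptor sensitivity (log2 0.04, 95% interval -0.51 to 0.59).

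The inflammation-induced list also had no call among 12 tested members in edgeR, DESeq2 or limma-voom, and none at an unadjusted p under 0.05; its log2 fold changes ran from -0.66 to 0.65 with a median of -0.10. miR-155-5p, which promotes T cell and macrophage activation, had 9125 and 8489 CPM in ConA+Vehicle and 7285 and 5460 CPM in ConA+D8THC. Its groups did not overlap, but the difference was within the spread the test allows (log2 -0.47, 95% interval -0.98 to 0.05, edgeR adjusted p = 0.349). In Vehicle it stood at 1511 and 1091 CPM.

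miR-21a-5p, among the most abundant miRNAs of these libraries, had 79048 and 85678 CPM in ConA+Vehicle and 89006 and 72176 CPM in ConA+D8THC (log2 -0.03, 95% interval -0.87 to 0.81). miR-146a-5p, which damps NF-kappaB signalling, had 13526 and 17124 CPM against 20076 and 16422 CPM (log2 0.25, 95% interval -0.25 to 0.76). miR-147-3p, which macrophages make on Toll-like receptor stimulation, had 35 and 20 counts against 81 and 34 (log2 -0.21). The ConA groups overlapped for each of these 3.

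T cell activation miRNAs had 0 of 11 called in edgeR, DESeq2 and limma-voom. At an unadjusted p under 0.05, 1 was lower, beside 12.5% of all tested miRNAs. miR-210-3p, which rises with hypoxia and T cell stimulation, was level at 242 and 238 CPM in ConA+Vehicle and 281 and 202 CPM in ConA+D8THC (log2 0.01, 95% interval -0.71 to 0.73). In the miR-17-92 cluster and its paralogs, which drive lymphocyte proliferation, 0 of 15 were called by edgeR, DESeq2 or limma-voom, 1 was lower at an unadjusted p under 0.05, and 13 had a negative log2 fold change, with a median of -0.24. miR-19b-3p gave log2 -0.54 and miR-20a-5p -0.49; the cluster's median was between -0.35 and -0.11 under 4 other scalings. Its sign rested on 1 library: the median was 0.02 without ConA+D8THC replicate 2 and -0.52 without ConA+D8THC replicate 1.

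The other families held no called member in edgeR, DESeq2 or limma-voom and none at an unadjusted p under 0.05: the let-7 family (10 tested, median log2 -0.02), the miR-30 family (8, -0.06), the miR-15/16 family (7, 0.05, with the abundant miR-16-5p at 0.03), the miR-23-27-24 clusters (6, 0.17), resting lymphocyte miRNAs (9, 0.02) and bile duct epithelium (5, -0.19). A list of miRNAs that earlier work linked to cannabinoids in immune cells gave the same counts of 0, with 9 tested and a median of -0.03. The lists' medians near 0 changed sign with the scaling, which moved the median of all tested miRNAs by 0.10 (DESeq2 size factors), -0.11 (upper quartile), 0.06 (library totals) or 0.12 (counts outside the 4 lists). The single tested miR-34 family member was miR-34a-5p (log2 0.25, 95% interval -0.38 to 0.87).

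**Figure D4:**
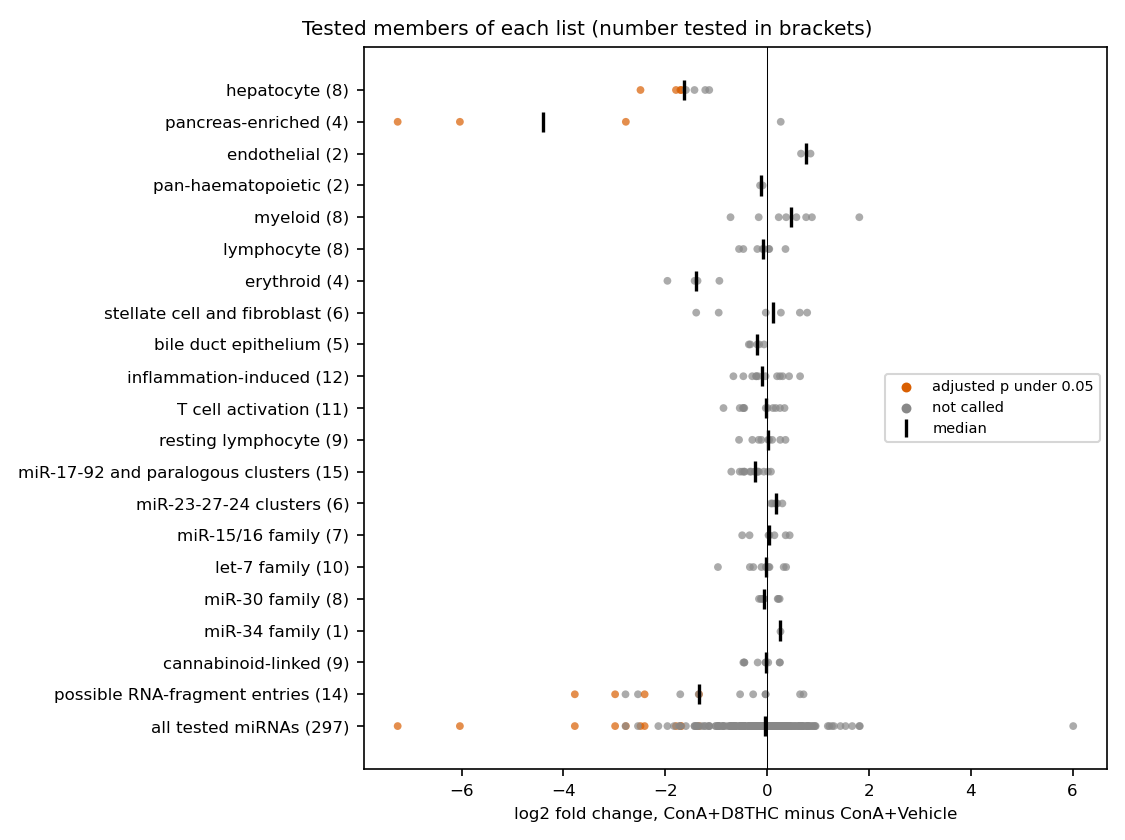
Log2 fold change, ConA+D8THC minus ConA+Vehicle (horizontal), of every tested member of the 20 lists, 1 row a list with the number tested in brackets, and of all 297 tested miRNAs in the last row; orange points were called and black bars are medians. The hepatocyte, pancreas-enriched, erythroid and RNA-fragment rows lie mostly left of 0, and the lymphocyte, inflammation and let-7 rows straddle it.

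Erythroid miRNAs had lower values with D8THC that did not pass in the main test. Of 4 tested members, 4 were lower at an unadjusted p under 0.05, beside 12.5% of all tested miRNAs. Of the same 4, edgeR called 0, limma-voom 0 and DESeq2 1. That count turned on single libraries: edgeR called all 4 lower when either Vehicle library was left out, and 3 when replicate 2 of ConA+Vehicle was. With ConA+D8THC replicate 2 left out it called 2, and with replicate 1 of that group left out 1. miR-451a, matured by Argonaute 2 in red cell precursors, had 858 and 321 CPM in ConA+Vehicle and 162 and 142 CPM in ConA+D8THC (log2 -1.96 ± 0.54 SE, edgeR adjusted p = 0.0955). miR-144-5p, from the same locus, had 242 and 159 CPM against 69.1 and 81.1 CPM (edgeR adjusted p = 0.207), and miR-486a-5p gave log2 -0.94 (0.187). ConA+Vehicle replicate 1 was the highest of the 4 ConA libraries for all 3, and the log2 fold change of miR-451a was -1.08 without it. The part of residual blood in the other results was not tested.

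No hairpin strand was called to change apart from its partner. In 66 hairpins with both arms tested, edgeR's test of unequal change (diffSpliceDGE) called 0 of 132 arms (0%), and 3 had an unadjusted p under 0.05; no other tool was run. The smallest p was that of miR-542-5p, which made up 13.9% and 16.4% of its hairpin's counts in ConA+Vehicle and 5.18% and 5.62% in ConA+D8THC (edgeR unadjusted p = 0.00578, edgeR adjusted p = 0.763). The miR-142a hairpin gave 22.6% and 22.7% from its 5p arm in ConA+Vehicle and 22.4% and 21.5% in ConA+D8THC. The miR-126a hairpin gave 27.4% and 29.5% against 25.6% and 26.2%.

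Shares were also taken over the counts outside the hepatocyte, pancreas-enriched, endothelial and erythroid lists. These are not counts of immune miRNAs alone. The let-7 family held 18.3% of them in ConA+Vehicle and 19.4% in ConA+D8THC. The part left was 66.4% to 69.4% of counts in ConA+Vehicle and 65.5% to 73.3% in ConA+D8THC, so the ConA groups overlapped. In Vehicle replicates 1 and 2 it was 58.7% and 51.8%. On that base the myeloid list held 4.69% ± 0.305 (SD, n = 2) in ConA+Vehicle and 3.36% ± 0.407 in ConA+D8THC. miR-223-3p prevails in that share, while 6 of the list's 8 tested members had a positive log2 fold change. The lymphocyte list held 2.77% ± 0.337 and 2.17% ± 0.465, and the miR-142a pair 14.2% ± 0.863 and 13.5% ± 2.45. No test was run on these shares; an exact permutation of 2 libraries against 2 can give no p under 0.333.

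**Figure D5:**
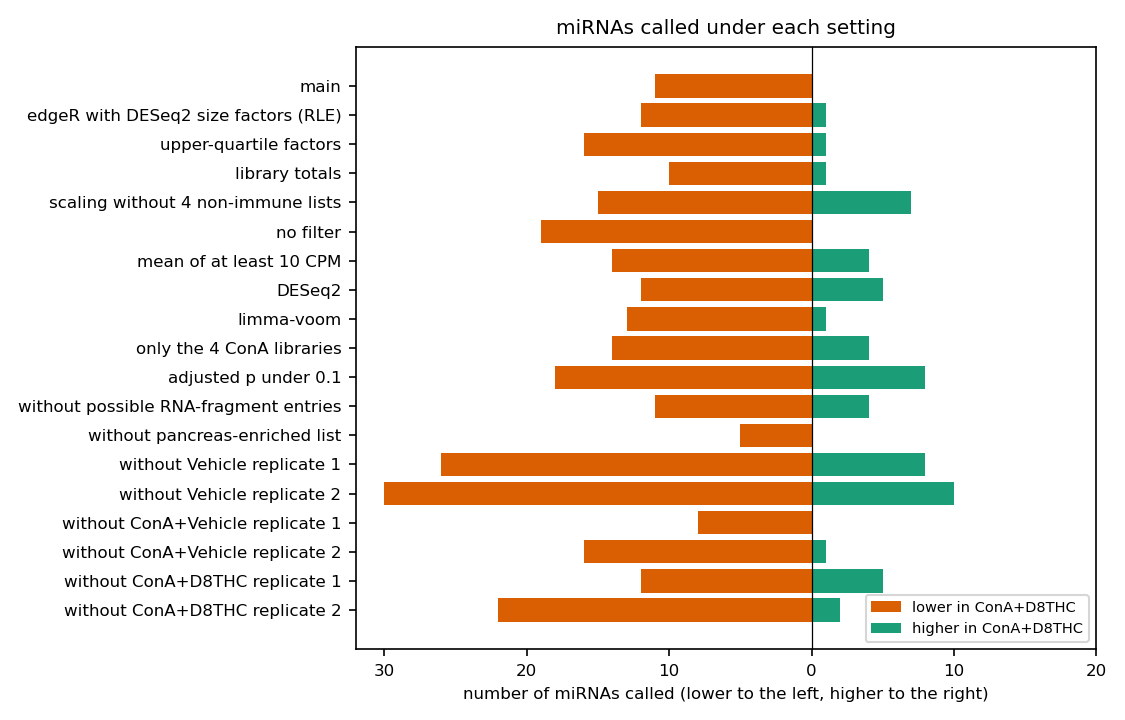
Number of miRNAs called lower (left) and higher (right) in ConA+D8THC under the main test and other settings, among them each library left out; the fit with a replicate block is not drawn. In the settings drawn, calls on the lower side run from 5 to 30 and on the higher side from 0 to 10.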

How the data were processed

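Small RNA libraries of liver immune cells were read from the count table the authors deposited: raw counts for each mature miRNA, made on the QIAGEN GeneGlobe portal against mm10, per the labels and the submitters' processing notes. For the aligner, annotation release, multi-mapping reads and molecular identifiers, the entry is "not given in the sources used here"; near-identical miRNAs can share reads. Libraries held 322764 to 1172389 counts.

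miRNAs with enough counts by group (filterByExpr) were scaled by TMM and tested with edgeR 4.0.16 (R 4.3.3), quasi-likelihood with robust dispersion, on all 6 libraries with 3 residual degrees of freedom. Benjamini-Hochberg adjustment covered all tested miRNAs, and an adjusted p under 0.05 was called. Printed CPM use TMM library sizes; shares use raw totals. Arm usage used diffSpliceDGE. The procedure was tested on simulated data. Alternatives were other scalings, filters, DESeq2 1.42.0, limma 3.58.1 (voom), the 4 ConA libraries alone, a replicate block, a threshold of 0.1, lists left out and each library left out.

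Named miRNAs are all called ones; the 10 smallest p-values on a side with fewer than 10 calls, at 10 CPM or more on average and without overlap; the 3 most abundant of each list; the 10 most abundant overall; 13 chosen immune and liver miRNAs; other arms; and shared seeds. The members and lists were chosen with earlier results of these data known. Sequences are from RefSeq and overlaps from GENCODE M21.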

Additional observations from a re-analysis of the deposited data

How the results depend on the processing

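The calls of miR-122-5p, miR-192-5p, miR-194-5p, miR-802-5p, miR-216a-5p and miR-5121 held in every alternative that tested them; over the 59 named miRNAs, calls were lost in 14 cases, all of miR-217-5p, miR-375-3p, miR-3535, miR-5126 or miR-6538. The number of miRNAs called lower was 19 with no filter, 18 at an adjusted p under 0.1 and 5 without the pancreas-enriched list, and ran from 8 to 30 with each library left out. The number called higher was 1 with DESeq2 size factors, upper-quartile factors, library totals or limma-voom. It was 4 with a minimum of 10 CPM, with the 4 ConA libraries alone or without the possible RNA-fragment entries, 5 with DESeq2, 7 with scaling to counts outside 4 lists, 8 at an adjusted p under 0.1, and 0 to 10 with each library left out. The cause was not tested.

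With a replicate block, 32 were called lower and 12 higher. These included miR-223-3p, miR-150-5p and miR-19b-3p lower, and miR-99b-5p and miR-125a-5p of the myeloid list higher. miR-99a-5p, miR-100-5p and miR-125b-5p, which share seeds with the latter, were also called higher. The labels name no pairing, and the numbers were not taken as pairs. Deviations of same-numbered libraries correlated at 0.203 (Vehicle and ConA+Vehicle), 0.238 (Vehicle and ConA+D8THC) and 0.0726 (the ConA groups). With 2 libraries in a group the deviations are equal and opposite, so differently numbered libraries correlate at the same size with a minus sign. These values therefore cannot decide whether the numbers mark pairs.

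Values near 0 changed sign. The log2 fold change of miR-142a-3p was 0.017 with DESeq2 size factors and with DESeq2, 0.038 with scaling outside the 4 lists, 0.029 with a minimum of 10 CPM and 0.0088 without fragment entries. That of miR-21a-5p was 0.072 with DESeq2 size factors and with DESeq2, 0.039 with library totals, 0.089 with scaling outside the 4 lists, 0.033 with no filter, 0.080 with a minimum of 10 CPM and 0.058 without fragment entries. With upper-quartile factors miR-181a-5p was -0.071, miR-210-3p -0.099 and miR-16-5p -0.084; miR-210-3p was -0.0054 with limma-voom and -0.012 with the replicate block. With each library left out, the ranges were -2.18 to 1.35 (miR-215-5p), -0.18 to 0.27 (miR-181a-5p), -0.66 to 0.15 (miR-147-3p), -0.062 to 0.17 (miR-16-5p), -0.18 to 0.14 (miR-21a-5p), -0.23 to 0.25 (miR-210-3p), -0.32 to 0.15 (miR-142a-3p) and -0.41 to 0.13 (miR-142a-5p).

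Shares over the counts outside the 4 lists, in ConA+Vehicle and ConA+D8THC, were 14.2% and 13.5% (pan-haematopoietic), 4.69% and 3.36% (myeloid) and 2.77% and 2.17% (lymphocyte). miR-223-3p prevails in the myeloid share, while 6 of that list's 8 tested members had a positive log2 fold change in the main test. The ConA+Vehicle libraries, the shallowest of the series, limit what can be said of sparse miRNAs.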
